A study of Mus musculus with 22 samples.

Results

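The genes examined were the 7 that encode the core of MHC class II antigen presentation: Cd74, H2-Aa, H2-Ab1, H2-Eb1, H2-DMa, H2-DMb1 and Ciita. They were chosen by name and not by a rule on their measured values, though earlier results of these data were known. All 7 were found among the 21995 genes of the deposited tables. Whole spinal cord was sequenced as 1 RNA-seq library per mouse. In the aging experiment, 8 young wild-type males of 3 to 4 months were set against 8 old wild-type males of 18 to 24 months, with libraries made with the Roche KAPA HyperPrep kit. In the ALS experiment, 3 SOD1 G93A mice were set against 3 wild-type control mice, labelled 5 to 6 months, with 2 females and 1 male in each group and libraries made with the Illumina TruSeq kit. All mice had the C57BL/6 background. The SOD1 G93A mice, a model of amyotrophic lateral sclerosis (ALS), carry many copies of a mutant human SOD1 transgene under the human SOD1 promoter, and the control mice lack it.

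MHC class II molecules display peptides from the endosomes to CD4 T cells. In the central nervous system they are known mainly from activated microglia, border macrophages and infiltrating immune cells. H2-Aa and H2-Ab1 encode the alpha and beta chains of I-A, the class II molecule that C57BL/6 mice put on the cell surface. H2-Eb1 encodes the beta chain of I-E, which is not assembled in this strain because it has no working alpha chain gene, H2-Ea. Cd74 encodes the invariant chain, which holds the peptide groove closed until endosomal proteases cut it down to the fragment CLIP. H2-DMa and H2-DMb1 encode the chains of H2-DM, the chaperone that exchanges CLIP for antigenic peptide. Ciita encodes the coactivator that switches these genes on together.

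Ciita acts on class II genes through a shared promoter module, so the promoters of these genes were set side by side. In that module the X box is bound by the Rfx factors and the Y box, an inverted CCAAT, by NF-Y. RefSeq promoter windows (GRCm38.p6, 250 bases before to 50 after a start) were used for 8 of 12 class II genes, the members and 5 related genes. No window was used for the members Cd74, H2-Ab1 and Ciita or for the related gene H2-Ea. The letters GCAAC (in the X box) and ATTGG (the Y box) were searched on the gene's strand of these windows, and the words do not overlap each other. Capitals mark these words in bases -100 to -36 before the start, for members and for the H2-DM inhibitor genes H2-Oa and H2-Ob, printed to show how the words are placed:
H2-Aa: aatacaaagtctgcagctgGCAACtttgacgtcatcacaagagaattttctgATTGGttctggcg
H2-Eb1: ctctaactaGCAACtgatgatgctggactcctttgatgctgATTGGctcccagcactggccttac
H2-Oa: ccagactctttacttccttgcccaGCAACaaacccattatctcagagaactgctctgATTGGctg
H2-Ob: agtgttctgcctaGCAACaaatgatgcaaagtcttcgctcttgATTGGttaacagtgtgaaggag
The sequences are from chr17:34287859-34287923 (H2-Aa, minus strand), chr17:34305767-34305831 (H2-Eb1, plus strand), chr17:34092279-34092343 (H2-Oa, plus strand) and chr17:34238805-34238869 (H2-Ob, plus strand). In H2-Aa, GCAAC began at -81 and ATTGG at -48, which is 33 bases apart. The distance was 32 bases in H2-Eb1, 33 in H2-Oa and 30 in H2-Ob. The related gene H2-Eb2 held the same order with a distance of 32 bases. The H2-DMb1 window held ATTGG at -61 and no GCAAC, and neither of the 2 annotated H2-DMa starts had the pair. Each word alone is common, on either strand in 35.2% (GCAAC) and 37.4% (ATTGG) of 32851 mouse promoter windows. GCAAC followed on the gene's strand by ATTGG, with starts 30 to 35 bases apart, was in 44 windows (0.134%), a spacing chosen after the class II windows were seen. These matches describe letters and show no binding.

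The genes lie on 3 chromosomes of GRCm38. H2-Aa (chr17:34282744-34287823), H2-Ab1 (chr17:34257689-34269419), H2-Eb1 (chr17:34305867-34316674), H2-DMa (chr17:34119541-34139101) and H2-DMb1 (chr17:34153072-34160230) lie together in the MHC. Cd74 lies at chr18:60803848-60812652 and Ciita at chr16:10480059-10528418. Some reads cannot be assigned with certainty. Of the 50-base words in the H2-DMb1 transcripts, 22.7% also occur in the neighbouring H2-DMb2. Of the exonic bases of H2-DMa, 10.4% lie under exons of Brd2 on the other strand, and 3.45% of those of Ciita under Dexi. Whether the authors' counting used strand is not stated in the sources used here.

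The libraries of young mice held 5078092 to 9358055 counts, those of old mice 5664869 to 9145600, those of control mice 10693060 to 13219797 and those of SOD1 G93A mice 9675610 to 11872431. Levels are given as CPM, counts scaled to a common library size after TMM scaling between the libraries of an experiment. The detection floor, set at 3 counts, was 0.320 to 0.582 CPM in the aging libraries and 0.231 to 0.302 CPM in the ALS libraries. Markers of neurons, astrocytes and oligodendrocytes were abundant in every library. The class II genes together had only 69 to 133 counts in a young library, 132 to 394 in an old one, 139 to 172 in a control and 605 to 1075 in a SOD1 G93A library. Counting error is therefore a large part of the spread of the lower members.

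In old mice, the invariant chain, the I-A chains and the beta chain of H2-DM were between 2.77-fold and 5.17-fold as abundant on average as in young mice. H2-DMa was 1.38-fold as abundant. Ciita was not detectably different. Because the libraries are of whole tissue, a change in the number of cells of a type and a change in RNA per cell cannot be told apart, here or below.

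Cd74 ranged from 0.915 to 3.50 CPM in young mice with a median of 2.27, and from 4.16 to 15.5 in old mice with a median of 8.26. Every old mouse was above every young mouse. The log2 fold change was 1.94 ± 0.24 (SE, n = 8 and 8, edgeR quasi-likelihood test, adjusted p = 1.64e-06).

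H2-Aa, the alpha chain of I-A, ranged from 0.226 to 0.785 CPM with a median of 0.565 in young mice, and from 1.54 to 4.16 with a median of 2.60 in old mice. The groups did not overlap, and all young libraries held 2 to 6 counts. The log2 fold change was 2.35 ± 0.27 (edgeR adjusted p = 5.73e-07). H2-Ab1, the beta chain, went from a median of 0.648 CPM (0.392 to 1.65) in young mice to 2.16 (0.925 to 3.41) in old mice. Here 6 of 8 old mice were above the highest young mouse. H2-Ab1 had too few counts for the filter on low values. Its mean CPM differed by an exact two-sided permutation test (p = 0.00171), and the fit without a filter gave a log2 fold change of 1.43 ± 0.32 (edgeR adjusted p = 0.00187).

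H2-DMb1 ranged from 1.13 to 1.98 CPM with a median of 1.76 in young mice, and from 2.78 to 7.22 with a median of 5.82 in old mice. The groups did not overlap, although the lowest old library was well below the next one at 5.51. The log2 fold change was 1.81 ± 0.19 (edgeR adjusted p = 1.37e-07). Its partner H2-DMa was the most abundant member in young mice, at 5.09 to 8.59 CPM with a median of 6.82, and reached 7.40 to 11.7 with a median of 9.28 in old mice. The groups overlapped, with 7 of 8 old mice above every young mouse. The log2 fold change was 0.46 ± 0.12 (edgeR adjusted p = 0.00531). Brd2, which shares exonic bases with H2-DMa, had a log2 fold change of 0.11 ± 0.04 (edgeR adjusted p = 0.0820).

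The remaining members were near the limit of detection. H2-Eb1, the unpaired I-E beta chain, had a median of 1.11 CPM (0.494 to 1.82) in young mice and 1.99 (0.771 to 2.63) in old mice, with broad overlap. The permutation test gave an exact p of 0.0317, which rose to as much as 0.0623 when 1 of 7 libraries was left out (young libraries d149009, d149012 and d159033 and old libraries d149027, d149028, d149032 and d149036) and fell to 0.0112 without old library d149034. The fit without a filter gave 0.76 ± 0.31 (edgeR adjusted p = 0.0889), so the difference did not pass after adjustment. Ciita was at 0 to 8 counts in young and 2 to 8 in old libraries. Its median was 0.342 CPM (0 to 0.989) in young and 0.612 CPM (0.272 to 1.08) in old mice. The groups overlapped almost wholly (exact permutation p = 0.164), so a difference was not detectable at this depth.

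**Figure D1:**
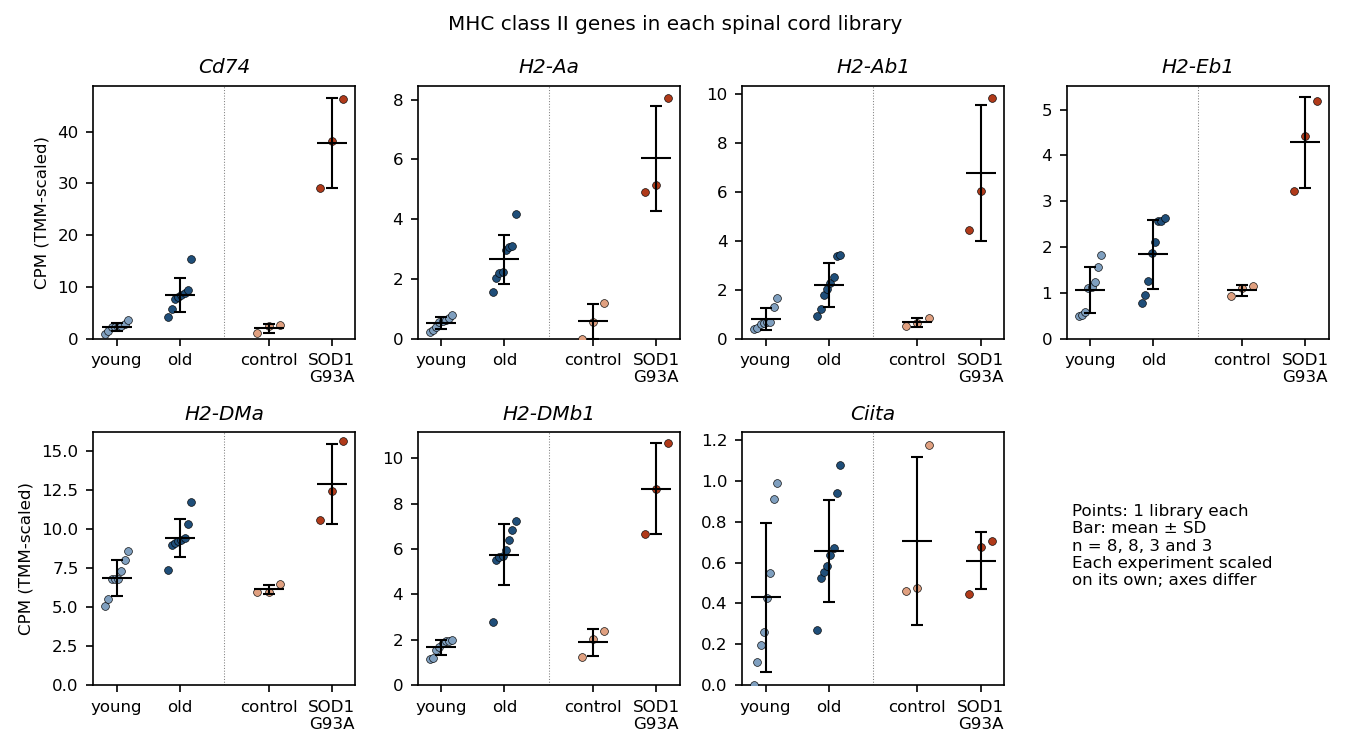
TMM-scaled CPM (y axis, a separate scale per gene) of the 7 class II genes in each library of young, old, control and SOD1 G93A mice (x axis); points are libraries and bars are mean ± SD. Old mice lie wholly above young mice for Cd74, H2-Aa and H2-DMb1, SOD1 G93A mice lie wholly above controls for every gene but Ciita, and the Ciita groups overlap in both experiments.

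Of the 7 members, 4 passed the filter on low values in aging, and all 4 were higher in old mice, where 13.5% of all 13647 genes tested were higher and 12.9% lower. Of these, 3 also had a log2 fold change above 1 (2.18% of all genes), and the same 3, Cd74, H2-Aa and H2-DMb1, had groups without overlap (3.66% of all genes). H2-Aa passed the filter only through the old mice, so these counts over tested members lean toward higher calls. Without old library d149034, 6 members passed. Without a filter, when all 7 could be counted, 5 of 7 were higher against 9.97% of all genes. With a minimum count of 20, only H2-DMa and Cd74 remained testable and both were higher.

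In SOD1 G93A mice, 6 of the 7 genes were higher than in controls, and Cd74 showed the largest change of the 7, 19.2-fold in the mean. The I-A chains were 10.4-fold and 10.3-fold as abundant and both H2-DM chains at least 2.10-fold. Ciita did not differ detectably.

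Cd74 was at 0.999, 2.37 and 2.53 CPM in the control libraries and at 29.0, 38.1 and 46.4 CPM in the SOD1 G93A libraries. The lowest SOD1 G93A mouse was thus far above the highest control. The log2 fold change was 4.28 ± 0.29 (n = 3 and 3, edgeR adjusted p = 8.14e-05).

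H2-Aa was at 0, 0.569 and 1.18 CPM in controls and at 4.91, 5.14 and 8.06 CPM in SOD1 G93A mice, a log2 fold change of 3.38 ± 0.64 (edgeR adjusted p = 0.00537). H2-Ab1 was at 0.505, 0.615 and 0.854 CPM in controls and at 4.43, 6.02 and 9.85 CPM in SOD1 G93A mice, a log2 fold change of 3.36 ± 0.40 (edgeR adjusted p = 0.000635). Neither chain overlapped between groups. The size of the H2-Aa change depended on single control libraries, at 4.48 without d4441, where its count was highest, and 2.75 without d4444, which held no H2-Aa count. H2-Eb1 was at 0.922, 1.09 and 1.14 CPM in controls and at 3.22, 4.43 and 5.19 CPM in SOD1 G93A mice, also without overlap. Its log2 fold change was 2.02 ± 0.30 (edgeR adjusted p = 0.00203).

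H2-DMa was at 5.98, 5.98 and 6.45 CPM in controls and at 10.6, 12.5 and 15.7 CPM in SOD1 G93A mice. The log2 fold change was 1.07 ± 0.18 (edgeR adjusted p = 0.0036), the smallest of the 6 members that passed. Brd2, on the other strand, was also higher, by 0.28 ± 0.08 (edgeR adjusted p = 0.0279). H2-DMb1 was at 1.23, 2.02 and 2.37 CPM in controls and at 6.65, 8.64 and 10.7 CPM in SOD1 G93A mice, a log2 fold change of 2.22 ± 0.30 (edgeR adjusted p = 0.00112). Again the groups of both genes stood apart.

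Ciita was at 0.461, 0.474 and 1.18 CPM in controls and at 0.448, 0.678 and 0.705 CPM in SOD1 G93A mice, from 5 to 14 counts per library. The SOD1 G93A values fell within or just below the control range. The fit without a filter gave a log2 fold change of -0.22 ± 0.58 (edgeR adjusted p = 0.817), an error wide enough to hide a sizeable change in either direction. Dexi, which shares exonic bases with Ciita, passed as lower in SOD1 G93A mice and did not pass in aging. Its part in the Ciita counts was not tested.

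Of the 7 members, 6 were tested in the ALS experiment, and all 6 were higher, against 18.4% of all 14386 genes tested, with 15.5% of genes lower. All 6 also had a log2 fold change above 1 (8.5% of all genes) and groups without overlap (25.7% of all genes). H2-DMa was at 0.91 without SOD1 G93A library d4443 and at 0.93 with limma, which left 5 above 1. H2-Ab1 passed the filter only through the SOD1 G93A libraries and H2-Aa through these and 1 control library. Without a filter, 6 of 7 were higher against 14.4% of all genes. With 3 mice against 3, an exact permutation test of single genes cannot go below p = 0.1, and each of the 6 reached that value.

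**Figure D2:**
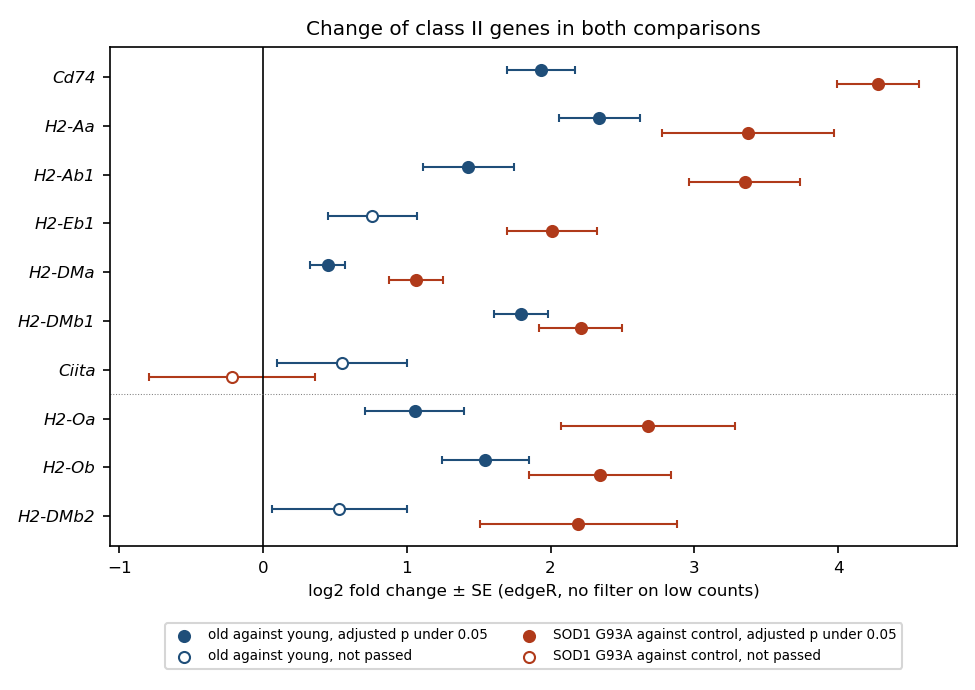
Log2 fold change ± SE (x axis) of the 7 class II genes and, under the dotted line, 3 related genes, in old against young mice (blue) and SOD1 G93A against control mice (red), from edgeR fits without a filter on low counts so that every gene has a value; filled points passed an adjusted p of 0.05. Cd74 is farthest to the right in SOD1 G93A mice, and Ciita is open in both comparisons.

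Whether a member changed more in one experiment than in the other was tested by an interaction term, the change in SOD1 G93A mice minus the change in old mice, in an edgeR fit of all 22 libraries. Kit, depth, sex makeup and experiment coincide with the comparison, so their part in any difference cannot be told apart. Cd74 changed more in SOD1 G93A mice, by 2.30 ± 0.44 on the log2 scale (edgeR adjusted p = 0.000401). H2-Ab1 also did, by 1.88 ± 0.56 (edgeR adjusted p = 0.0144), and H2-DMa by 0.59 ± 0.21 (edgeR adjusted p = 0.0412). Those 3 of the 6 tested members compare with 25.8% of all genes that differed in either direction and 11.6% with a larger value in SOD1 G93A mice. For the others the difference did not pass: 1.22 ± 0.50 for H2-Eb1 (edgeR adjusted p = 0.0766), 0.99 ± 0.65 for H2-Aa (edgeR adjusted p = 0.276) and 0.38 ± 0.34 for H2-DMb1 (edgeR adjusted p = 0.447). Without SOD1 G93A library d4443, Cd74 alone passed and the value of H2-Ab1 was 1.52 (edgeR adjusted p = 0.0662). H2-DMa passed in only 1 of the 6 fits that left out an ALS library. The difference for H2-Aa was 2.08 without control library d4441 (edgeR adjusted p = 0.0437) and 0.37 without control library d4444 (edgeR adjusted p = 0.676).

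The members did not change by equal amounts, so 8 ratios between them were compared within libraries on the log2 scale. Before this, 2 counts were added to every count, which shrinks the change of genes with low counts. Exact two-sided permutation tests were adjusted over the 8. In aging, Cd74 over H2-DMa went from -1.57 ± 0.56 (SD) in young to -0.23 ± 0.58 in old mice, with all 8 old mice above every young mouse (exact permutation p = 0.0001554, the smallest these mice can give, adjusted 0.00124). The ratio of the H2-DM chains, H2-DMb1 over H2-DMa, rose by 1.18 (exact permutation, adjusted p = 0.00124), with 7 of 8 old mice above every young mouse. The ratio of H2-Aa over H2-Eb1 rose by 1.25 (exact permutation, adjusted p = 0.0029). Cd74 over H2-Ab1 (0.57), over H2-Eb1 (1.12) and over Ciita (1.24) also rose, with adjusted p from 0.0127 to 0.0135 by the same exact permutation test. Cd74 over H2-Aa changed by -0.12 (exact permutation, adjusted p = 0.704) and over H2-DMb1 by 0.16 (exact permutation, adjusted p = 0.622), neither beyond the spread. Without the added counts, the log2 ratio of mean CPM in old over young mice was 1.92 for Cd74 and 2.37 for H2-Aa. In SOD1 G93A mice, Cd74 over H2-DMb1 went from 0.01 ± 0.28 to 2.11 ± 0.01, and Cd74 over H2-DMa from -1.66 ± 0.75 to 1.53 ± 0.08. The groups did not overlap for 7 of the 8 ratios, the exception being Cd74 over H2-Aa, and the smallest p possible is 0.1.

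Levels of different genes were compared only per length, as FPKM (fragments relative to transcript length and depth) recovered from the deposited log2(FPKM + 1) values. In young mice H2-DMa was highest at 5.40 ± 1.07 FPKM (SD, n = 8), above every other member in every library. Cd74 (1.66 ± 0.57) and H2-DMb1 (1.33 ± 0.32) followed with overlapping ranges, then H2-Ab1 (0.893 ± 0.670), H2-Eb1 (0.861 ± 0.403) and H2-Aa (0.545 ± 0.172), also overlapping, and Ciita (0.0788 ± 0.0647) was lowest. In old mice H2-DMa (7.28 ± 1.38) and Cd74 (6.41 ± 2.68) overlapped, followed by H2-DMb1 (4.63 ± 1.47), H2-Aa (2.51 ± 0.74), H2-Ab1 (1.90 ± 0.90), H2-Eb1 (1.51 ± 0.65) and Ciita (0.119 ± 0.041). Among these neighbours only Ciita was separate from the gene above it in all 8 libraries without overlap.

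The control mice had nearly the same order as the young mice, with H2-DMa at 5.02 ± 0.14 FPKM (n = 3), Cd74 at 1.48 ± 0.61, H2-DMb1 at 1.44 ± 0.41, H2-Eb1 at 0.847 ± 0.095, H2-Ab1 at 0.600 ± 0.070, H2-Aa at 0.557 ± 0.510 and Ciita at 0.127 ± 0.072. H2-DMa, H2-DMb1 and H2-Eb1 were each above the next gene without overlap. The SOD1 G93A mice had another order. Cd74 led in every library at 29.7 ± 6.7 FPKM, before H2-DMa (10.6 ± 2.1), H2-DMb1 (6.53 ± 1.67), H2-Aa (5.64 ± 1.63), H2-Ab1 (5.54 ± 2.31), H2-Eb1 (3.59 ± 0.87) and Ciita (0.110 ± 0.026). The ranges of H2-DMa, H2-DMb1, H2-Aa, H2-Ab1 and H2-Eb1 overlapped from each gene to the next. Cd74 contributed a median of 16.9% of the members' summed FPKM in young mice (7.21% to 21.8%), 25.4% in old mice (19.9% to 35.5%), 15.9% in controls (9.54% to 17.3%) and 47.2% in SOD1 G93A mice (46.9% to 50.4%). The share of H2-DMa had medians of 50.9%, 29.1%, 46.2% and 16.9% in the same order.

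**Figure D3:**
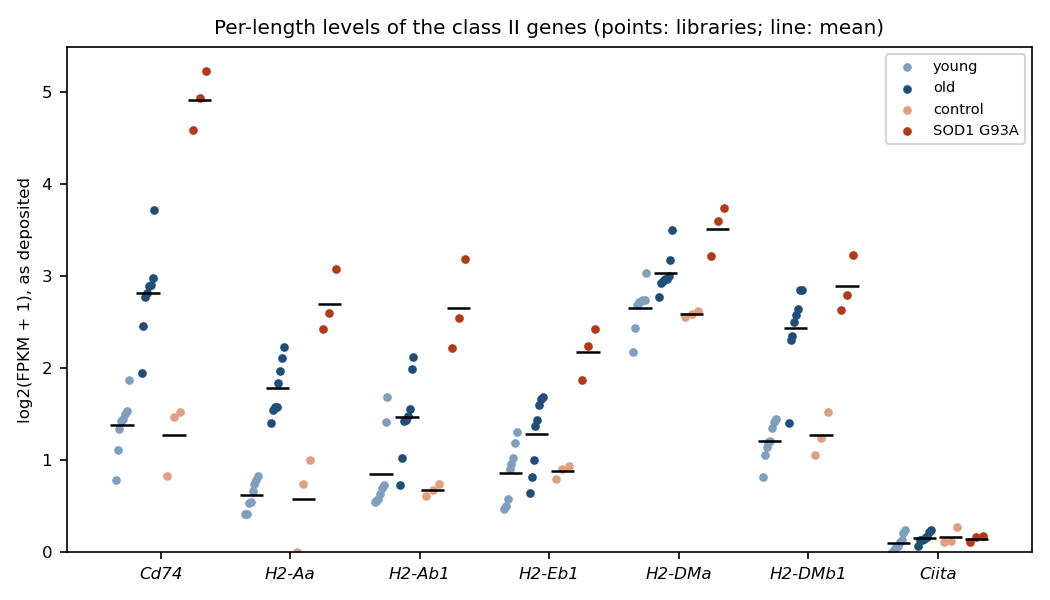
Deposited log2(FPKM + 1) values (y axis) of the 7 class II genes (x axis) in each library, by group; points are libraries and lines are group means. H2-DMa is highest in young and control mice, Cd74 is highest in the 3 SOD1 G93A mice, and Ciita is near 0 in all groups.

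Related class II genes were low. H2-Oa and H2-Ob encode H2-O, which restrains H2-DM. None of the 4 related genes analysed had enough counts for the filter in aging. Without a filter, H2-Ob had a log2 fold change of 1.55 ± 0.30 (edgeR adjusted p = 0.000536), from 0.260 to 0.865 CPM in young to 0.874 to 2.22 CPM in old mice, just without overlap. H2-Oa had one of 1.05 ± 0.35 (edgeR adjusted p = 0.0326), with 5 of 8 old mice above every young mouse. H2-Eb2 (1.19 ± 0.67, edgeR adjusted p = 0.233) and H2-DMb2 (0.53 ± 0.47, edgeR adjusted p = 0.455) did not pass. The ALS libraries allowed 3 of the 4 to be tested and all 3 were higher in SOD1 G93A mice, against 18.4% of all genes: H2-Oa by 2.69 ± 0.60 (edgeR adjusted p = 0.0102), H2-Ob by 2.35 ± 0.50 (edgeR adjusted p = 0.00824) and H2-DMb2 by 2.19 ± 0.62 (edgeR adjusted p = 0.0251). H2-DMb2 held 0 to 5 counts in controls and 12 to 14 in SOD1 G93A mice and H2-Oa 1 to 6 and 11 to 40, so both passed the filter only through the group where they were high. Part of the H2-DMb2 sequence is shared with H2-DMb1. H2-Eb2 stayed at 0 to 3 counts. H2-Ea was not analysed here.

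The factors that bind the promoter module with Ciita had small log2 fold changes in aging. Of 7 such genes (Rfx5, Rfxank, Rfxap, Nfya, Nfyb, Nfyc and Creb1), none passed in aging. Over all genes tested, 13.5% were higher and 12.9% lower, so a count over 7 genes says little. Their median log2 fold change was -0.01 beside -0.0027 over all genes tested. The values ran from -0.17 ± 0.07 for Creb1 to 0.18 ± 0.08 for Nfya. Only Nfya, an NF-Y subunit, passed in SOD1 G93A mice, at 0.91 ± 0.21 (edgeR adjusted p = 0.0105). There 18.4% of all genes were higher and 15.5% lower. The list's median was -0.07 beside 0.0031 over all genes.

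On the interferon gamma route that induces Ciita, 4 of 7 tested genes were higher and 1 lower in old mice, with a median of 0.22. Over all genes tested, 13.5% were higher and 12.9% lower. Irf8, a transcription factor of microglia and other myeloid cells, had the largest log2 fold change, 1.86 ± 0.17 (edgeR adjusted p = 2.71e-08), and Jak2, a receptor kinase, the smallest, -0.19 ± 0.06 (edgeR adjusted p = 0.0156). Among 8 tested in SOD1 G93A mice, 4 were higher (18.4% of all genes) and 1 lower (15.5% of all genes), with a median of 0.55. There Irf8 was at 3.38 ± 0.26 (edgeR adjusted p = 0.000124), and Jak2 at 0.07 ± 0.09 did not pass. Interferon gamma itself (Ifng) had 1 count in 1 old and 1 control library and 0 in all others. A change of Ifng could not be assessed at this depth.

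Genes for the proteases that cut antigen and the invariant chain were higher in both comparisons, by unequal amounts. All 7 tested (Ctss, Ctsl, Ctsb, Ctsd, Ctsh, Ctsz and Lgmn) were higher in old mice, against 13.5% of all genes tested. In SOD1 G93A mice all 7 were higher as well, against 18.4% of all genes. Their median log2 fold changes were 1.50 and 2.84, beside -0.0027 and 0.0031 over all genes tested. Ctsh, an aminopeptidase cathepsin, was at 1.70 ± 0.10 in aging (edgeR adjusted p = 3.27e-11) and 2.87 ± 0.22 in SOD1 G93A mice (edgeR adjusted p = 0.000124). Lgmn, asparaginyl endopeptidase, was at 0.33 ± 0.04 (edgeR adjusted p = 4.16e-07) and 0.68 ± 0.12 (edgeR adjusted p = 0.00395). These proteases serve lysosomes in many cell types.

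For the turnover of surface class II, Cd83, which slows its removal, was at 0.24 ± 0.04 in aging (edgeR adjusted p = 0.000225), and the ubiquitin ligase gene March8 at -0.22 ± 0.07 (edgeR adjusted p = 0.0199). March1 did not pass, and none of the 3 passed in SOD1 G93A mice (Cd83 -0.02 ± 0.11, March8 0.12 ± 0.12). Of 6 costimulation and receptor genes, only 3 had enough counts for the filter in each comparison. These 3 were higher in both, against 13.5% of all genes in aging and 18.4% in SOD1 G93A mice. Cd86, a costimulatory ligand, was at 1.88 ± 0.24 in old mice (edgeR adjusted p = 2.63e-06) and 2.43 ± 0.30 in SOD1 G93A mice (edgeR adjusted p = 0.000764). Icosl, the ligand of ICOS, was at 0.94 ± 0.11 (edgeR adjusted p = 5.23e-07) and 1.58 ± 0.19 (edgeR adjusted p = 0.000686). The medians of the 3, which include the class II receptor Lag3, were 1.85 and 2.43. Cd4 was at 0 to 5 counts in all 22 libraries.

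**Figure D4:**
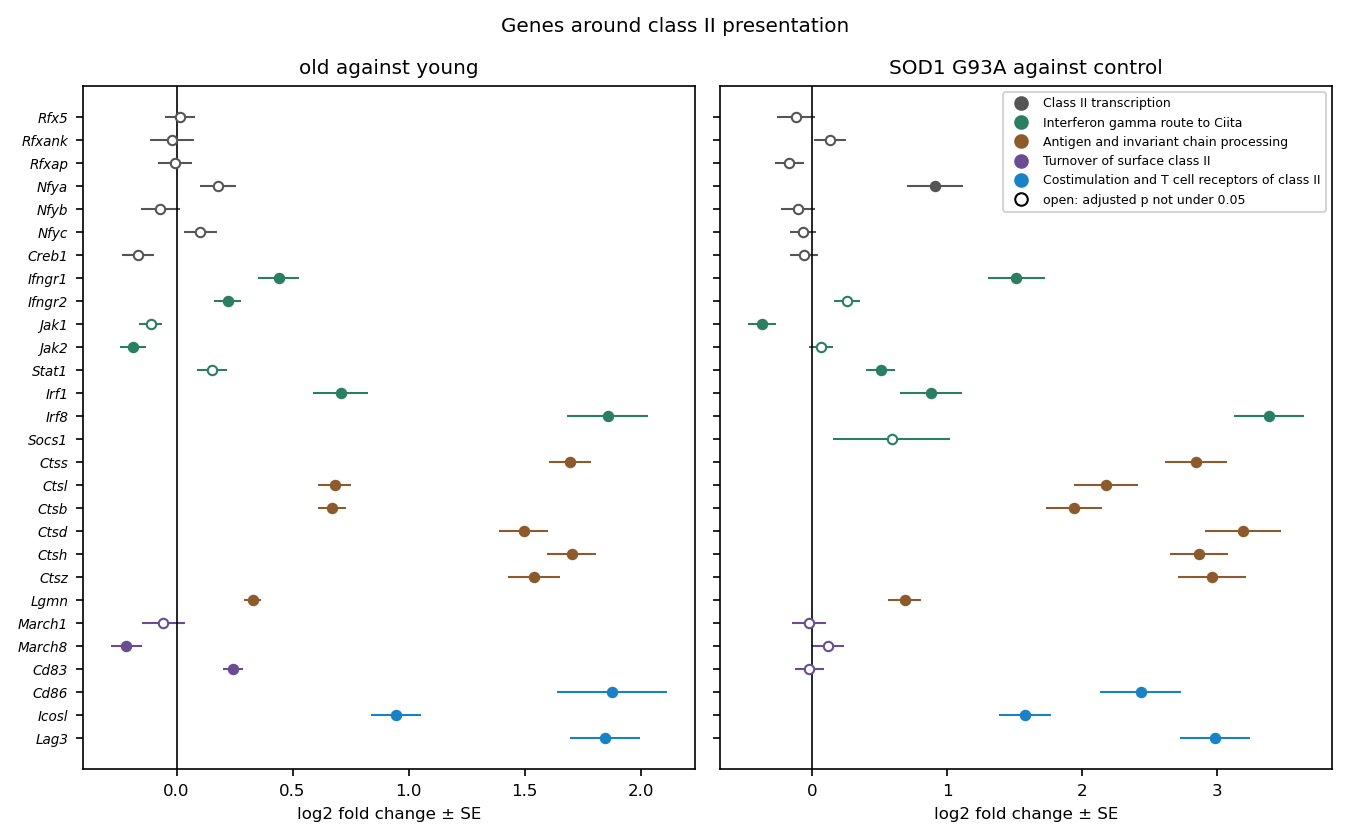
Log2 fold change ± SE (x axes) of genes around class II presentation (y axis), coloured by list, in old against young mice (left) and SOD1 G93A against control mice (right); open points did not pass an adjusted p of 0.05 and genes not tested are left out. The 7 proteases lie right of 0 in both panels, while the promoter-binding factors lie near 0 except Nfya in SOD1 G93A mice.

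Markers of the cells that could carry class II transcripts were measured in the same libraries. The summed CPM of 10 microglia markers was 349 to 389 in young, 495 to 724 in old, 371 to 437 in control and 1078 to 1661 in SOD1 G93A mice, so it moved with the class II genes. Of the 10 markers, 7 were higher in aging and 6 in SOD1 G93A mice, against 13.5% and 18.4% of all genes tested. P2ry12, a marker of resting microglia, was at 0.05 ± 0.12 and 0.13 ± 0.10 on the log2 scale and passed in neither. Markers of border macrophages summed to 2.26 to 5.69 CPM in young, 3.50 to 7.58 in old, 1.77 to 3.80 in control and 8.36 to 18.2 in SOD1 G93A mice. Much of the difference in this sum came from Ms4a7, which held 0 to 1 counts in young, 0 to 26 in old, 0 to 2 in control and 34 to 125 in SOD1 G93A libraries. Means of Cd163, F13a1, Pf4 and Cbr2 were not higher in old than in young mice. Those of Mrc1 (0.669 in young and 0.839 CPM in old mice) and Lyve1 (0.212 and 0.378 CPM) were higher. Neither passed in the fit without a filter (edgeR adjusted p = 0.680 and 0.396). In SOD1 G93A mice, 4 of the 7 border macrophage markers were tested and 2 were higher, against 18.4% of all genes. The part of either cell type in the class II changes was not tested.

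Markers of other immune cells were read one by one. Of the B cell markers, Ms4a1 had at most 2 counts, Cd79a at most 5 and Cd79b at most 10 in any library, while Cd22, which activated microglia also express, rose by 4.31 ± 0.31 in aging (edgeR adjusted p = 4.63e-10) and 6.66 ± 0.56 in SOD1 G93A mice (edgeR adjusted p = 0.000169). The 6 T cell markers summed to 0.439 to 1.81 CPM in young, 1.70 to 4.26 in old, 0.692 to 1.43 in control and 1.61 to 2.51 in SOD1 G93A mice, with at most 14 counts for any of them. Of 7 dendritic cell markers, Ccr7 and Cd209a had at most 3 counts in every library, and Clec9a and Xcr1 at most 7. Flt3 had 164 to 337 counts in the aging libraries and was lower in old mice, by -0.24 ± 0.07 (edgeR adjusted p = 0.0118), and in SOD1 G93A mice, by -0.93 ± 0.22 (edgeR adjusted p = 0.0135). Zbtb46 had 38 to 110 counts and passed in neither comparison. Batf3 was higher in SOD1 G93A mice, by 1.58 ± 0.32 (edgeR adjusted p = 0.00697), and had 0 to 11 counts in the aging libraries. The list summed to 41.8 to 47.2 CPM in young, 33.9 to 45.6 in old, 39.2 to 46.9 in control and 25.5 to 38.1 in SOD1 G93A mice. Monocyte and neutrophil markers summed to at most 4.22 CPM in any library.

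Set against the summed microglia markers, the folds of Cd74, H2-Aa and H2-DMb1 were smaller in both experiments and that of H2-DMa was below 1. Per 100 CPM of these markers, H2-Aa was 2.88-fold (exact permutation p = 0.0001554), Cd74 2.06-fold (exact permutation p = 0.000622) and H2-DMb1 1.91-fold (exact permutation p = 0.0001554) as abundant in old as in young mice. These p-values are not adjusted for the 7 members tested. All 8 old mice were above every young mouse for H2-Aa and H2-DMb1, and 6 of 8 for Cd74. H2-DMa was lower relative to the markers, 0.776-fold (exact permutation p = 0.00886). H2-Ab1 (1.50-fold, exact permutation p = 0.101), H2-Eb1 (0.971-fold, exact permutation p = 0.891) and Ciita (0.887-fold, exact permutation p = 0.743) did not differ beyond the spread. In SOD1 G93A mice, Cd74 was at 2.30, 2.69 and 3.27 CPM per 100 CPM of markers against 0.269, 0.543 and 0.668 in controls, 5.58-fold in the mean. H2-Ab1 was also separate (2.97-fold), H2-DMa was lower in all 3 mice (0.605-fold), and H2-Aa (3.03-fold), H2-Eb1 (1.22-fold) and H2-DMb1 (1.34-fold) overlapped between groups. Ciita was lower relative to the markers in all 3 mice, 0.0316, 0.0408 and 0.0654 CPM per 100 CPM against 0.109, 0.124 and 0.312 in controls (0.253-fold), from 5 to 14 counts per library. None of these could go below an exact permutation p of 0.1.

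**Figure D5:**
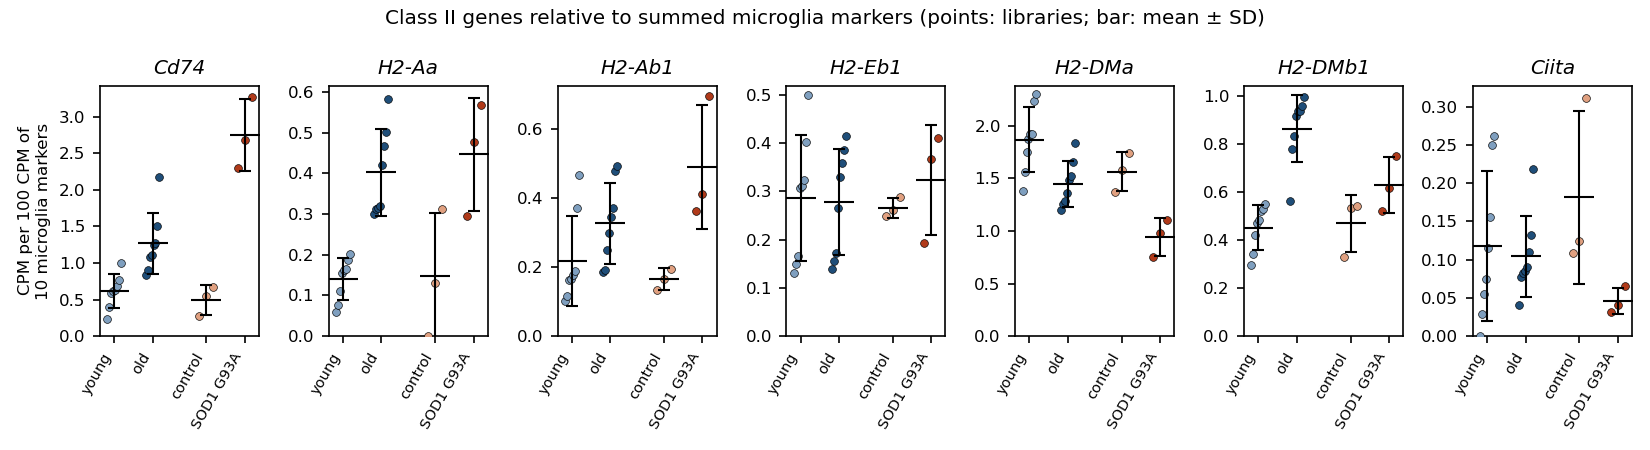
CPM of each class II gene per 100 CPM of 10 summed microglia markers (y axes, a separate scale per gene) in each library by group (x axes); points are libraries and bars are mean ± SD. Cd74 in SOD1 G93A mice lies wholly above controls, H2-Aa and H2-DMb1 in old mice lie wholly above young mice, and H2-DMa is lower in old and SOD1 G93A mice than in their controls on average.

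Among the 8 old mice, 9 relations of Cd74 to other measures were computed over log2 CPM. For single genes, 2 counts were added to every count first. H2-Ab1 followed Cd74 most closely (Pearson r = 0.871, exact permutation p = 0.00446, adjusted 0.0402; Spearman rho = 0.738, exact permutation p = 0.0458, adjusted 0.365). Without the libraries farthest from the median of Cd74, d149028 and d149034, r was 0.739. The relation to H2-Aa (r = 0.720) fell to -0.28 and that to H2-DMb1 (r = 0.729) to -0.01 without these libraries, so both rest on them. The relation to the summed microglia markers (r = 0.722) fell to 0.09 in the same way. No adjusted p other than that of the Pearson r for H2-Ab1 passed.

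The genes whose deviations from the group mean were most like those of the 4 tested members were sought among 13643 genes over the 16 aging libraries. They were Abcb4 (Pearson r = 0.895), Rin3 (0.881), C1qc (0.876), Spp1 (0.873) and C1qa (0.871), where 99% of genes were below 0.709. This is a description within a set of libraries that share depth and scaling. C1qa and C1qc, which encode complement chains, were themselves higher in old mice, by 2.09 (edgeR adjusted p = 5.21e-12) and 1.89 (edgeR adjusted p = 9.02e-12). Abcb4, a phospholipid transporter gene, did not pass, at -0.02 (edgeR adjusted p = 0.920).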

How the data were processed

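The authors aligned reads with STAR, counted them with RSEM on an Ensembl annotation of mm10, and deposited RSEM expected counts and, in a second table, log2(FPKM + 1) values. SAMtools 1.3 is also named in the submitters' processing notes. The MHC class II genes and all lists were chosen with earlier results of these data known. The deposited expected counts were rounded, and symbols were taken from GENCODE M21 (21842 of 21995 genes matched). Each comparison was fitted on its own with edgeR 4.0.16 in R 4.3.3: filterByExpr (minimum count 10, minimum total 15), TMM and the quasi-likelihood test, with p-values adjusted by Benjamini-Hochberg across every gene tested. Members were also compared by exact permutation of CPM, which covers those that the filter removed. The procedure was tested on simulated data.

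All pairs of libraries in a group differed beyond sampling noise (chi-square per degree of freedom at least 2.52). Replicates are mice. In the log2 table, 304 of 125800 entries with a count of 0 were above 0. Columns give group and library but no replicate number. Sex is given per group and was not a covariate. Floors cover counting error only. Alternatives were DESeq2 1.42.0, RLE factors, no filter, a minimum count of 20, one fit of all 22 libraries, limma 3.58.1 on the log2 values, and leaving out each library. Members, all related class II genes, the gene with the largest and the smallest aging log2 fold change per list, Ifng, Cd4 and the 5 most alike genes are named. Single marker genes, Brd2 and Dexi were named after their values were seen. H2-Ea and Ifi30 were not analysed here. 1 B cell marker is not reported here.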

Additional observations from a re-analysis of the deposited data

Results flagged for a closer look

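In 14 sets of 8 libraries, 1 for each member in young and in old mice, the highest and lowest library were compared with the rest by Dixon's gap at the 95% level, which chance passes in about 1 of 20 groups. Cd74 was at 15.5 CPM in old library d149028, with the next library at 9.28, and the gap was 0.547 of the group's range against a critical value of 0.526. H2-DMb1 was at 2.78 CPM in old library d149034, with the next at 5.51, a gap of 0.616 of the range. Without either library, the aging changes of these genes still passed.

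The change in SOD1 G93A mice exceeded that in old mice, by the interaction test in edgeR, for Cd74 by 2.30, for H2-Ab1 by 1.88 and for H2-DMa by 0.59 on the log2 scale. Kit, depth, sex makeup and experiment cannot be told apart from these differences.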

How the results depend on the processing

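No paired analysis was possible because the columns carry no replicate numbers. With a minimum count of 20, the aging count of members higher was 2 and that with a log2 fold change above 1 was 1, since fewer genes were tested. Leaving out 1 library at a time, the aging count ranged from 4 to 6 and the ALS count stayed at 6, of which 5 to 6 had a log2 fold change above 1. The number of genes called higher in ALS ranged from 1638 (without d4443) to 3476 around 2641. Genes that differed between the comparisons ranged from 2381 (without d4435) to 4938 around 3745, and members from 1 (without d4443) to 3. The log2 ratio of mean CPM of H2-Eb1 in aging ranged from 0.69 to 0.95, with the exact permutation p over 0.05 in 7 of 16 cases. That of Ciita in ALS was -0.21 and ranged from -0.44 to 0.38, the last without control library d4441. The difference for H2-DMa did not pass without a filter (0.56, edgeR adjusted p = 0.0697). Cd74 ranged from 1.75 to 2.06 in aging and from 3.94 to 4.52 in ALS with 1 library left out, and limma on the log2 values gave 1.43 and 3.64. Within each comparison, every tested change of a member kept its direction and stayed past the adjusted p threshold with DESeq2, RLE factors, no filter, one fit of all libraries, limma and each library left out, where it could be fitted. The low counts of Ciita, H2-Eb1 and H2-Ab1 limit what aging can show.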
